A study of Mus musculus with 15 samples.

Results

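The genes described here are 37 members of the hypoxia-inducible factor (HIF) pathway: the HIF subunits, the enzymes that mark and degrade them, and target genes outside glycolysis. They were picked by name from the 43432 gene identifiers of the count table, 37 of 37 were found there, and 37 passed the filter on low counts that left 16736 genes for testing. They were selected on a difference in level between 5 named libraries and the other 10, so that difference is given as a description, without a test. The 5 libraries hold 1 library of each treatment: AM580 replicate 1, CD3254 replicate 1, AM580+CD3254 replicate 2, 9-cis retinoic acid replicate 1 and DMSO replicate 1. They are called the 5-library set, and the remaining libraries the 10-library set. No sample label names a batch or an oxygen level, and the sets were themselves read from the counts. The replicate number in the labels comes close to the split without matching it. The 5-library set holds replicate 1 of every treatment except AM580+CD3254, where it holds replicate 2.

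The libraries are RNA sequencing of 266-6 cells, an acinar line derived from a mouse pancreatic tumour. All cells were grown in DMEM with 10% serum, kept for 24 h in stripped medium, and then exposed for 24 h to AM580 (an agonist of the retinoic acid receptor RARα), CD3254 (an agonist of its partner, the retinoid X receptor), both agonists, 9-cis retinoic acid (a ligand of both receptor families) or the vehicle DMSO. Each treatment had 3 libraries. Ligand doses are not given in the labels, and nothing there says whether replicates were separate cultures, and p-values therefore cover the spread among libraries of 1 cell line, which may be technical. Reads assigned to genes numbered from 28501170 to 46801058 in 14 libraries and 14600962 in 9-cis retinoic acid replicate 3, where 63.0% of the reads had no gene. The first principal component of log2 CPM carried 48.3% of the variance, with the 5-library set between -90 and -59.4 and the 10-library set between 25.3 and 40.2. CPM stands for counts scaled to a common library total, here with TMM factors.

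HIF is a transcription factor made of an oxygen-labile α subunit, encoded by Hif1a or Epas1, and a stable partner encoded by Arnt. In oxygen, prolyl hydroxylases of the Egln family mark the α subunit, and the Vhl protein then leads it to degradation. In low oxygen the α subunit persists, enters the nucleus and binds short DNA elements with the core ACGTG or GCGTG near genes for glucose use, pH control, mitophagy and blood vessel growth. The main control acts on the protein, which RNA sequencing does not measure.

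The promoters of 6 members are shown because the results turn on them. Adm, Ankrd37 and Bnip3 had the largest differences between the library sets. Egln3 is the pathway's own feedback enzyme, and Hif1a showed no clear difference between the sets. Car9 levels were ordered by ligand within both sets, but no ligand test of all 15 libraries called Car9. Each run holds the 250 bases before and 50 bases after a RefSeq transcript start on GRCm38.p6, and capitals mark ACGTG or GCGTG on either strand (CACGT and CACGC are their reverse complements). The windows are chr7:110627407-110627706 on the plus strand for Adm, chr8:45999801-46000100 on the minus strand for Ankrd37, chr7:138909457-138909756 on the minus strand for Bnip3, chr12:54203825-54204124 on the minus strand for Egln3, chr4:43506776-43507075 on the plus strand for Car9 and chr12:73907617-73907916 on the plus strand for Hif1a.
Adm: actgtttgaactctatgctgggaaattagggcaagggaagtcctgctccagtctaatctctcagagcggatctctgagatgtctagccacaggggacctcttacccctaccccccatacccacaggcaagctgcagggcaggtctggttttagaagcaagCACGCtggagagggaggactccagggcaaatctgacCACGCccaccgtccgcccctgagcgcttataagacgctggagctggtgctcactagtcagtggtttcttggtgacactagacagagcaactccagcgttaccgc
Ankrd37: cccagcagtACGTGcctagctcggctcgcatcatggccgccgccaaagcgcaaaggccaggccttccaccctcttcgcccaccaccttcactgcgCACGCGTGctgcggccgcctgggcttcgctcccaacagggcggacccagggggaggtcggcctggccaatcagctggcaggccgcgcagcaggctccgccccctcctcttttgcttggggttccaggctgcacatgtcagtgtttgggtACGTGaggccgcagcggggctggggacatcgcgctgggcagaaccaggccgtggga
Bnip3: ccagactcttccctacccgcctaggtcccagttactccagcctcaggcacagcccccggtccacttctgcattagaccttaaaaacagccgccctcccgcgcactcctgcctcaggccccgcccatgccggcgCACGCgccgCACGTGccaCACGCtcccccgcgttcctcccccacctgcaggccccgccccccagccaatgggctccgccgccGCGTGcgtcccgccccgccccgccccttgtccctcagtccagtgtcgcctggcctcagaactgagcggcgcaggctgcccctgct
Egln3: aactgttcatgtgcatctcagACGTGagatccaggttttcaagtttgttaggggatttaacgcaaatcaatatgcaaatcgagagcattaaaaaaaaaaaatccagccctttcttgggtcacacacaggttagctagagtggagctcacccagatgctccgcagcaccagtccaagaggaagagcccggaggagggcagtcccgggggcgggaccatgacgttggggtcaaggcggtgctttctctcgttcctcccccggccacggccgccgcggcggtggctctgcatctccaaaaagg
Car9: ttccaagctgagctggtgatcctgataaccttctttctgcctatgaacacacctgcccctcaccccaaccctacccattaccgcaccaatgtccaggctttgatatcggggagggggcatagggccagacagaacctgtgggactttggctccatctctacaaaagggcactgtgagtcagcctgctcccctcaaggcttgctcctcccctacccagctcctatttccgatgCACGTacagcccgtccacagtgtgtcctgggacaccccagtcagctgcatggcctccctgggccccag
Hif1a: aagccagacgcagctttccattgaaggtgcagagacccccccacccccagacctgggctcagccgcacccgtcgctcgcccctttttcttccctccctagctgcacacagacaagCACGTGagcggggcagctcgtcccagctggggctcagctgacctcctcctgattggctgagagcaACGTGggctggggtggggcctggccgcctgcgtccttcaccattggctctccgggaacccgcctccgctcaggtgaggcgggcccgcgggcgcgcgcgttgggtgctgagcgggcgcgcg

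Windows were found for 30 of the 37 members. ACGTG stood in at least 1 window of 21 of these 30 genes (70%), against 21.8% of all 27025 genes with a window. GCGTG stood in 21 of 30 (70%), against 35.2% of all genes, and either core in 26 of 30 (86.7%), against 46.7%. CACGTG, which holds ACGTG on both strands, stood in 8 of 30 (26.7%), against 8.09%. Hif1a, whose level overlapped between the sets, has the ACGTG core 3 times over both strands, with 1 CACGTG counted on each strand. Adm has GCGTG 2 times and no ACGTG. Vhl, Hif1an, Car12 and Gbe1 have neither core in the window searched. A match is a run of letters and not a measured binding site, and most members are known HIF targets, so the shares are a description.

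Most members were far higher in the 5-library set, and they were so within every treatment. All 5 libraries lay above all other 10 in 29 of 37 members (78.4%), against 13.4% of the 16736 genes. The 5 libraries lay below the other 10 in 1 member (2.7%), Cited2, against 12.6% of all genes, and 7 members overlapped. The median difference in log2 CPM over the members was 2.06, against -0.005 over all genes tested; 27 members differed by at least 1, 19 by at least 2 and 11 by at least 3. Because the members were chosen for this difference, the background shares only place them and show nothing more. The summed level of the 37 members was 7692 to 8755 CPM (median 8456) in the 5-library set and 1980 to 2202 CPM (median 2041) in the 10-library set. Adm ranked 1 and Ankrd37 ranked 4 by this difference among all genes, and the first 100 genes held 11 members. In bulk RNA, a change in the number of cells with a transcript and a change in RNA per cell cannot be told apart.

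**Figure D1:**
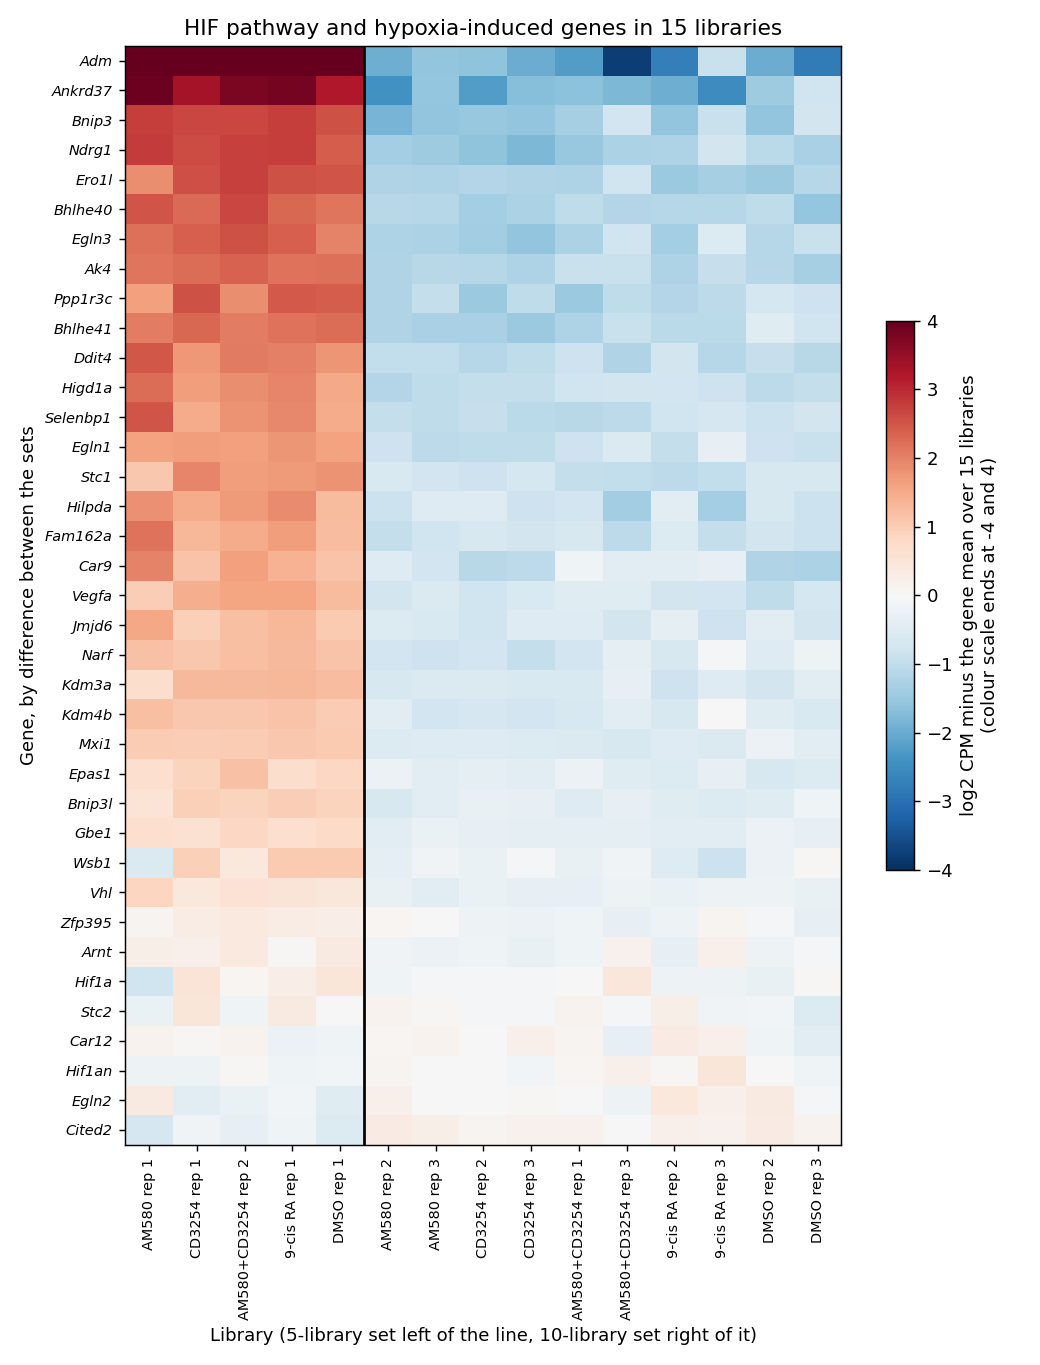
Level of the 37 genes (rows, ordered by the difference between the sets) in 15 libraries (columns), as log2 CPM minus the gene's mean, with the 5-library set left of the line and the 10-library set right of it. The upper 27 genes are red in the 5 columns on the left and blue or near white in the 10 on the right, by at least 1 on the log2 scale between the set means, and Cited2 at the foot runs the other way.

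In the sections that follow, the values of the 5-library set are in the order AM580, CD3254, AM580+CD3254, 9-cis retinoic acid and DMSO, and the 10-library set is given by its lowest and highest value and its median. A difference is the mean over the 5 treatments of the library of the 5-library set minus the mean of the other 2 libraries, in log2 CPM, ± SD over the 5 treatments. No strand setting is given in the sources used here, and 9 of the 37 members share exonic bases with a neighbouring gene in GENCODE M21. They are Hif1a, Egln2, Ndrg1, Car9, Ankrd37, Bhlhe40, Mxi1, Fam162a and Jmjd6. Reads over the shared bases may have been added to their counts or left out of them.

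Of the HIF subunits, Epas1 was higher in the 5-library set, whereas Hif1a and Arnt overlapped. Hif1a (chromosome 12, 73901375 to 73947530), which encodes the more widely expressed α subunit, had 85.3, 215, 157, 179 and 208 CPM in the 5-library set and 122 to 203 CPM (median 142) in the 10-library set, a difference of 0.16 ± 0.58. Its lowest library of all 15 was AM580 replicate 1, and CD3254 replicate 1 and DMSO replicate 1 were above every library of the 10-library set. Epas1 (chromosome 17, 86753700 to 86833410), for the α subunit first described in endothelium, had 19.6, 22.7, 27.5, 20.1 and 22.0 CPM in the 5-library set and 7.85 to 10.4 CPM (median 9.05) in the 10-library set, a difference of 1.28 ± 0.20. The sets did not overlap for Epas1. Arnt, for the constitutive partner, had 127, 126, 141, 114 and 140 CPM in the 5-library set and 86.9 to 125 CPM (median 96.7) in the 10-library set, a difference of 0.37 ± 0.15. Its overlap came from 9-cis retinoic acid replicate 1, the lowest of the 5.

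Among the enzymes of degradation and hydroxylation, Egln3, Egln1 and Vhl were higher in the 5-library set, and Egln2 and Hif1an overlapped. Egln3 (chromosome 12, 54178981 to 54203860), a prolyl hydroxylase that is itself a HIF target, had 124, 139, 156, 139 and 105 CPM in the 5-library set and 8.96 to 18.1 CPM (median 11.1) in the 10-library set, a difference of 3.45 ± 0.32. Egln1 (chromosome 8, 124908587 to 124949324), the main oxygen-sensing prolyl hydroxylase and also a HIF target, had 244, 255, 253, 273 and 247 CPM in the 5-library set and 39.3 to 63.5 CPM (median 44.3) in the 10-library set, a difference of 2.49 ± 0.12. Both enzymes were separated from the 10-library set by a wide margin, and Egln1 varied little among the 5 libraries. Vhl, for the substrate receptor of the ubiquitin ligase, had 137, 101, 114, 109 and 103 CPM in the 5-library set and 57.0 to 65.8 CPM (median 62.0) in the 10-library set, a difference of 0.85 ± 0.21. Vhl did not overlap either, at a smaller difference.

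Egln2, the family member that hypoxia is not known to induce, had 108, 61.6, 70.7, 77.8 and 60.4 CPM in the 5-library set and 74.2 to 113 CPM (median 86.6) in the 10-library set, a difference of -0.30 ± 0.34. Only AM580 replicate 1 and 9-cis retinoic acid replicate 1 of the 5 lay within the range of the 10. Hif1an, for the asparaginyl hydroxylase that blocks coactivator binding, had 71.1, 71.1, 83.7, 72.0 and 76.0 CPM in the 5-library set and 72.7 to 113 CPM (median 82.9) in the 10-library set, a difference of -0.19 ± 0.16. Its ranges overlapped, with 3 of the 5 libraries just below the lowest of the 10.

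**Figure D2:**
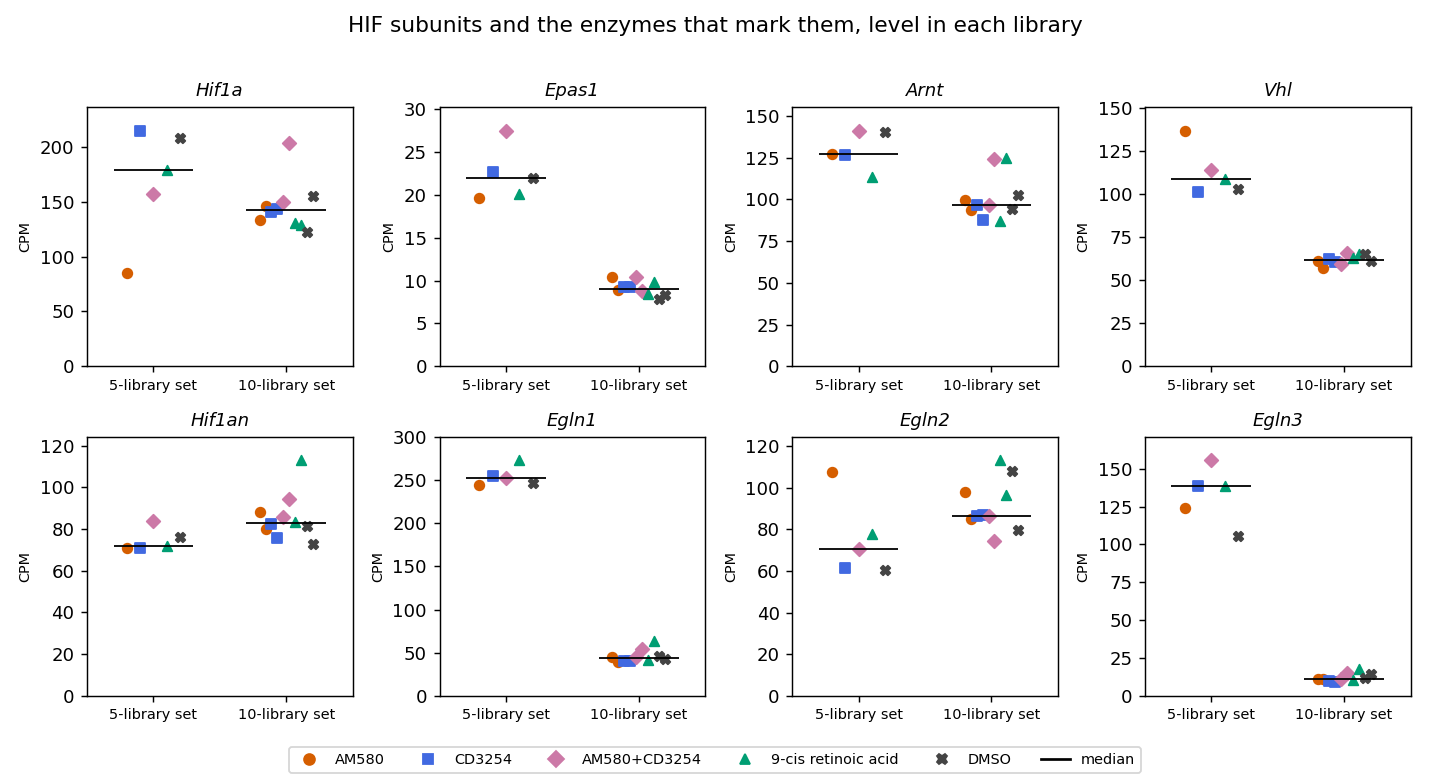
Level in CPM of the 3 HIF subunits and 5 enzymes that degrade or hydroxylate the α subunit; each point is a library, symbols give the treatment, and lines are set medians, with the 5-library set on the left of each panel. Egln1, Egln3, Epas1 and Vhl separate the sets, and Hif1a, Arnt, Hif1an and Egln2 overlap.

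Of the genes for pH control and the cell membrane, Ndrg1 and Car9 were higher in the 5-library set, and Car12 was low in both sets. Ndrg1, a stress-responsive protein of membrane trafficking, had 994, 875, 956, 991 and 769 CPM in the 5-library set and 41.5 to 86.1 CPM (median 57.8) in the 10-library set, a difference of 3.99 ± 0.29. Car9 (chromosome 4, 43506966 to 43513729), for a carbonic anhydrase on the outer face of the cell, had 248, 141, 196, 165 and 141 CPM in the 5-library set and 26.3 to 56.5 CPM (median 40.6) in the 10-library set, a difference of 2.19 ± 0.33. Neither gene overlapped between the sets, and within both sets the lowest Car9 levels were those with DMSO and CD3254. Car12, for a second carbonic anhydrase of the cell surface, had 4.20, 3.92, 4.16, 3.20 and 3.37 CPM in the 5-library set and 2.77 to 4.75 CPM (median 4.04) in the 10-library set, a difference of -0.03 ± 0.29. All 5 of its values lay inside the range of the 10.

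The secreted and vascular genes included the largest difference of all. Adm (chromosome 7, 110627661 to 110629820), which encodes the vasodilator peptide adrenomedullin, had 22.4, 20.4, 21.9, 21.8 and 17.9 CPM in the 5-library set and 0.025 to 0.513 CPM (median 0.214) in the 10-library set. These levels stand on 612 to 804 reads per library in the 5-library set and on 1 to 14 reads per library, 76 in all, in the 10-library set. The difference was 6.46 ± 0.53 with the prior count of 2 used for log values, and 6.78 with a prior count of 0.5. Vegfa, the vascular endothelial growth factor, had 447, 620, 684, 681 and 547 CPM in the 5-library set and 111 to 163 CPM (median 139) in the 10-library set, a difference of 2.06 ± 0.26. Stc1, a secreted glycoprotein hormone, had 90.3, 163, 136, 137 and 148 CPM in the 5-library set and 20.7 to 27.7 CPM (median 24.3) in the 10-library set, a difference of 2.46 ± 0.39. Adm, Vegfa and Stc1 did not overlap between the sets, and AM580 replicate 1 was the lowest of the 5 for Vegfa and Stc1. Stc2, the sister hormone, had 67.7, 116, 72.9, 105 and 81.0 CPM in the 5-library set and 56.7 to 95.8 CPM (median 79.9) in the 10-library set, a difference of 0.11 ± 0.39, and its ranges overlapped.

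Of the 10 members grouped here under transcription or chromatin, Ankrd37 and Narf among them, 9 were higher in the 5-library set and 1 was lower. Ankrd37, an ankyrin repeat protein, had 71.0, 47.4, 64.3, 66.5 and 43.5 CPM in the 5-library set and 0.770 to 2.64 CPM (median 1.35) in the 10-library set, a difference of 5.42 ± 0.69. Its exons overlap Lrp2bp and Ufsp2 on the other strand. Bhlhe40 and Bhlhe41 encode related transcriptional repressors that also act in the circadian clock. Bhlhe40 had 405, 344, 455, 352 and 317 CPM in the 5-library set and 24.4 to 35.5 CPM (median 32.2) in the 10-library set, a difference of 3.57 ± 0.14. Bhlhe41 had 42.5, 51.0, 42.7, 46.7 and 48.8 CPM in the 5-library set and 3.64 to 7.25 CPM (median 4.62) in the 10-library set, a difference of 3.25 ± 0.29. These 3 genes stood several-fold clear of the other 10 libraries in each of the 5.

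The histone demethylases and the remaining genes of the transcription or chromatin group were separated with smaller differences. Kdm3a had 259, 394, 391, 400 and 378 CPM in the 5-library set and 91.1 to 126 CPM (median 106) in the 10-library set, a difference of 1.75 ± 0.27. Kdm4b had 229, 206, 207, 216 and 198 CPM in the 5-library set and 58.1 to 97.5 CPM (median 64.1) in the 10-library set, a difference of 1.64 ± 0.16. Both remove methyl groups from histone lysines, and both were higher in each of the 5 libraries. Jmjd6, of the same fold family, had 173, 113, 137, 147 and 123 CPM in the 5-library set and 33.1 to 45.4 CPM (median 39.8) in the 10-library set, a difference of 1.82 ± 0.22. Mxi1, a partner of MAX that opposes MYC, had 160, 154, 160, 166 and 164 CPM in the 5-library set and 50.6 to 66.2 CPM (median 54.1) in the 10-library set, a difference of 1.55 ± 0.09. Narf, a nuclear protein that binds prelamin A, had 62.0, 58.0, 63.6, 68.6 and 61.4 CPM in the 5-library set and 14.1 to 25.9 CPM (median 17.1) in the 10-library set, a difference of 1.77 ± 0.18. Mxi1 varied least of the 3 among treatments, and none of the 3 overlapped.

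Zfp395, a zinc finger protein, had 202, 226, 243, 227 and 223 CPM in the 5-library set and 149 to 201 CPM (median 161) in the 10-library set, a difference of 0.41 ± 0.20. The gap between its sets lay between 201.7 and 200.9 CPM, and it closed in 14 of 19 other settings, among them DESeq2-type size factors and the loss of a single library. Cited2, a coregulator that competes with the α subunit for coactivators, had 40.4, 58.0, 51.0, 57.6 and 44.4 CPM in the 5-library set and 64.8 to 81.0 CPM (median 72.7) in the 10-library set, a difference of -0.56 ± 0.29. All 5 libraries lay below the 10, except under scaling by library totals alone, where the sets overlapped.

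All 5 mitochondrial members were higher in the 5-library set. Bnip3 (chromosome 7, 138890836 to 138909519), a receptor that brings mitochondria to autophagy, had 951, 887, 895, 941 and 820 CPM in the 5-library set and 38.5 to 84.1 CPM (median 48.0) in the 10-library set, a difference of 4.03 ± 0.33. Its paralog Bnip3l, a receptor of the same kind, had 305, 396, 381, 407 and 383 CPM in the 5-library set and 131 to 185 CPM (median 149) in the 10-library set, a difference of 1.28 ± 0.14. Both mitophagy receptors were clear of the 10-library set, Bnip3 by more. Ak4, an adenylate kinase of the mitochondrial matrix, had 158, 170, 184, 162 and 166 CPM in the 5-library set and 14.3 to 19.1 CPM (median 16.1) in the 10-library set, a difference of 3.34 ± 0.10. Higd1a, an inner membrane protein that associates with the respiratory chain, had 287, 196, 221, 239 and 175 CPM in the 5-library set and 27.2 to 37.3 CPM (median 31.7) in the 10-library set, a difference of 2.76 ± 0.32. Fam162a, a mitochondrial protein linked to cell death, had 543, 305, 339, 390 and 284 CPM in the 5-library set and 58.4 to 83.8 CPM (median 71.4) in the 10-library set, a difference of 2.37 ± 0.42. AM580 replicate 1 was the highest library for Higd1a and Fam162a, and no library of the 5 reached down to the 10.

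Of the 7 members in metabolism and stress, 6 were higher in the 5-library set. Ero1l, an oxidase of the endoplasmic reticulum that drives disulfide formation, had 369, 604, 665, 595 and 575 CPM in the 5-library set and 36.2 to 58.4 CPM (median 43.2) in the 10-library set, a difference of 3.67 ± 0.34. Ddit4, an inhibitor of mTOR signalling, had 924, 551, 708, 678 and 573 CPM in the 5-library set and 72.7 to 99.8 CPM (median 83.6) in the 10-library set, a difference of 3.02 ± 0.27. AM580 replicate 1 was the lowest of the 5 for Ero1l and the highest for Ddit4. Ppp1r3c, which targets a phosphatase to glycogen, had 26.5, 49.4, 30.8, 46.5 and 45.5 CPM in the 5-library set and 2.95 to 5.16 CPM (median 4.11) in the 10-library set, a difference of 3.28 ± 0.41. Gbe1, the glycogen branching enzyme, had 88.6, 85.1, 98.2, 87.5 and 93.7 CPM in the 5-library set and 40.9 to 46.8 CPM (median 42.3) in the 10-library set, a difference of 1.07 ± 0.09. Both glycogen genes were separated, Ppp1r3c with the wider spread among the 5.

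Selenbp1, a methanethiol oxidase, had 303, 149, 184, 203 and 147 CPM in the 5-library set and 24.4 to 33.0 CPM (median 27.6) in the 10-library set, a difference of 2.76 ± 0.47. Its near-identical paralog Selenbp2, which may share reads with it, had a median of 4.84 CPM in the 5-library set and 0.820 CPM in the 10-library set. Hilpda, a lipid droplet protein that restrains lipolysis, had 23.5, 18.8, 21.8, 24.8 and 16.1 CPM in the 5-library set and 2.50 to 4.79 CPM (median 3.78) in the 10-library set, a difference of 2.45 ± 0.36. Selenbp1 and Hilpda did not overlap. Wsb1, a substrate receptor of a ubiquitin ligase, had 47.3, 138, 96.3, 147 and 146 CPM in the 5-library set and 39.2 to 74.1 CPM (median 60.2) in the 10-library set, a difference of 0.86 ± 0.76. AM580 replicate 1 alone made its sets overlap; without that library the remaining 4 lay above the 10.

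Per kilobase of exonic sequence, the scale on which genes can be compared with each other, Fam162a led in both sets, at a mean level of 438 CPM per kilobase in the 5-library set and 83.1 in the 10-library set. Bnip3 ranked 2 in the 5-library set, at 397 CPM per kilobase, and ranked 8 in the 10-library set, at 25.2. Ddit4 followed at 391 CPM per kilobase in the 5-library set and 47.5 in the 10-library set. Among the α subunits, Hif1a stood above Epas1 in both sets: 28.6 CPM per kilobase for Hif1a and 4.0 for Epas1 in the 5-library set, and 24.6 for Hif1a and 1.64 for Epas1 in the 10-library set. The lowest member was Car12 in the 5-library set, at 0.496 CPM per kilobase, and Adm in the 10-library set, at 0.133.

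The difference was of like size in each treatment. The median over the 37 members of the library in the 5-library set minus the mean of the other 2 was 1.96 with AM580, 2.01 with CD3254, 1.94 with AM580+CD3254, 1.99 with 9-cis retinoic acid and 2.01 with DMSO. Each treatment has 1 such library, so these medians carry no replicate error of their own. Within the 5-library set, AM580 replicate 1 stood apart, being the highest library for 14 members and the lowest for 15. It was more than 1.25 times the next highest library for Car9, Ddit4, Egln2, Fam162a and Selenbp1. It was less than 0.8 times the next lowest for Bnip3l, Ero1l, Hif1a, Kdm3a, Stc1 and Wsb1. These limits were chosen after the values were seen. AM580 replicate 1 was also apart over all genes tested. It lay at -90 on the first principal component, against -71.8 to -59.4 for the rest of the 5-library set. Its TMM factor was 0.897, against 0.98 to 1.04 for the rest of that set. In the 10-library set, 9-cis retinoic acid replicate 3, the shallowest library, was the highest for 10 members. Such counts of the highest and lowest library were not made over all genes.

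**Figure D3:**
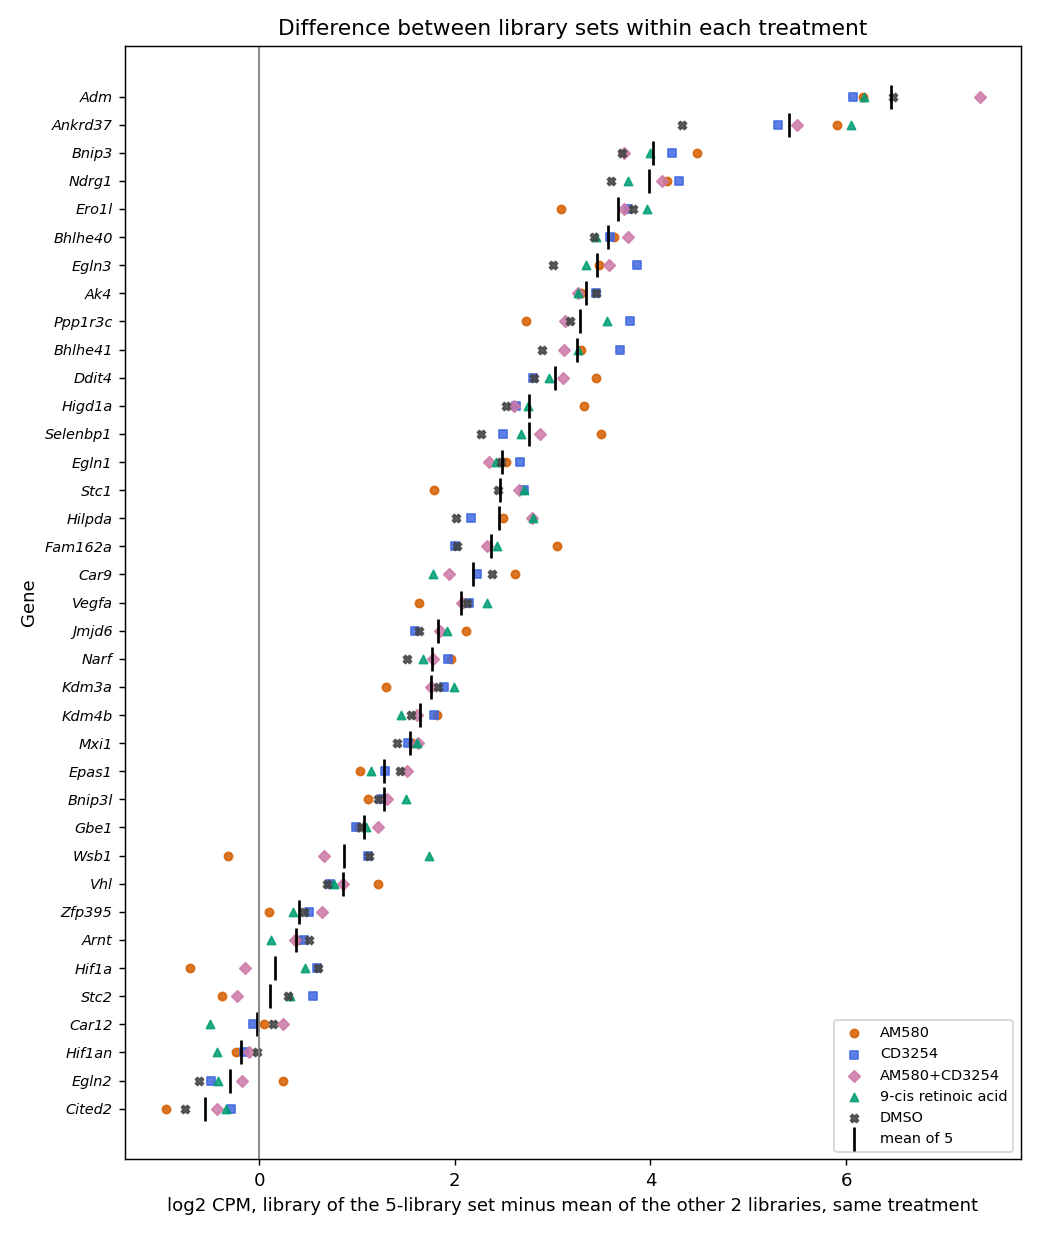
Difference between the sets for each gene: the log2 CPM of the library in the 5-library set minus the mean of the other 2 libraries, with 1 symbol per treatment and a bar at the mean of the 5. All 5 treatments lie above 1 for the genes from Adm down to Bnip3l; Hif1a, Stc2 and Wsb1 have AM580 below 0 and DMSO above it.

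Other genes of the pathway were taken from lists drawn up with earlier results of these libraries known. Of 22 tested genes for glucose uptake and glycolysis, 21 were higher in the 5-library set without overlap and 0 lower, with a median difference of 2.34 against -0.005 for all genes. Hk2, a hexokinase, had 192 to 254 CPM in the 5-library set and 6.18 to 15.5 CPM in the 10-library set, a difference of 4.62 ± 0.47. Slc2a1, the basal glucose transporter, differed by 4.61 ± 0.26 and Pfkfb3, which makes the activator of phosphofructokinase, by 4.53 ± 0.23. Pfkfb4, from the same family as Pfkfb3, differed by 0.40 and was the only tested gene of this list that overlapped; Pfkfb4 and Errfi1 were named after their values were seen. Of 23 tested genes for matrix and other hypoxia-induced functions, 16 were higher and 1, Errfi1, lower, with a median of 1.84. Errfi1, an inhibitor of the EGF receptor, had 34.1 to 44.1 CPM in the 5-library set and 56.8 to 82.1 CPM in the 10-library set. Loxl2, a lysyl oxidase, differed by 4.05 ± 0.54, and Cxcr4, a chemokine receptor, by 3.99 ± 0.21. Both of these hypoxia lists thus held mostly genes on the same side as the members, against 13.4% higher and 12.6% lower among all genes. Given how the lists were drawn up, these counts are a description and no independent evidence.

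The other regulators of HIF and the integrated stress response did not show that one-sided count. Of 13 tested regulators outside the members, 2 were higher and 0 lower, with a median difference of 0.12. Arnt2, a paralog of Arnt, had 26.9 to 37.1 CPM in the 5-library set and 4.68 to 8.83 CPM in the 10-library set, a difference of 2.12 ± 0.27. Crebbp and Ep300, which encode related coactivators of HIF, differed by -0.80 ± 0.60 and -0.53 ± 0.52, with overlap between the sets. Siah2, a ubiquitin ligase that acts on the Egln enzymes, was the other regulator without overlap and differed by 0.49 ± 0.18. Of 10 genes of the integrated stress response, 2 were higher and 3 lower, with a median of -0.40. Chac1, a glutathione-degrading enzyme, differed by -1.16 ± 0.49 and Sesn2, a stress-induced sestrin, by -0.82 ± 0.27, both lower in the 5-library set. Ddit3, the stress transcription factor CHOP, was higher by 0.85 ± 0.32.

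The acinar label was checked against 17 acinar markers, of which 15 passed the filter. Ctrb1, for chymotrypsinogen, was at 3841 to 7201 CPM over all libraries, whereas Cpb1, for a carboxypeptidase, had at most 8 reads in any library. Amy2b, which also failed the filter, is annotated as an unprocessed pseudogene in GENCODE M21, so its reads say nothing of amylase. The summed level of the 17, in large part Ctrb1, was 6553 to 11230 CPM in the 5-library set and 7798 to 11310 CPM in the 10-library set. Of the 15 tested markers, 1 (6.67%), Bhlha15, was higher without overlap, against 13.4% of all genes, with a log2 difference of 1.04. Lower without overlap were 4 (26.7%), against 12.6% of all genes. They were Ptf1a (-1.28), Rbpjl (-1.49), Gata4 (-0.90) and Cel (-1.56). Markers of other cell types were in part near 0 and in part well expressed. Ptprc, Adgre1, Cd3e and Csf1r of immune cells, Ins1, Ins2, Gcg and Sst of islets, Lum of fibroblasts and Cdh5 of endothelium had at most 5 reads in any library. Over all libraries, Chga of the endocrine list was at 166 to 447 CPM, Pdx1 of the same list at 65.1 to 224 CPM and Pdgfrb of the fibroblast list at 155 to 342 CPM. The 8 endocrine markers summed to 331 to 518 CPM in the 5-library set and 372 to 577 CPM in the 10-library set, with Pdx1 lower in the 5-library set without overlap (log2 difference -1.42 ± 0.18, SD over the 5 treatments). The 5 fibroblast markers summed to 168 to 220 CPM in the 5-library set and 157 to 345 CPM in the 10-library set, with Col1a1 higher without overlap, at 1.56 to 2.05 CPM in the 5-library set and 0.200 to 0.599 CPM in the 10-library set. The 6 ductal markers summed to 64.1 to 89.3 CPM in the 5-library set and 54.7 to 85.2 CPM in the 10-library set. Among them Spp1 was higher (log2 difference 3.00 ± 0.60) and Sox9 lower (-1.17 ± 0.16) without overlap, and Krt19 had a log2 difference of 2.35 ± 0.75 with overlap. The 5 immune markers summed to 9.60 to 24.0 CPM in the 5-library set and 4.43 to 8.27 CPM in the 10-library set, nearly all from Cd68, which was higher without overlap (log2 difference 1.32 ± 0.54). The 5 endothelial markers summed to 7.16 to 9.30 CPM in the 5-library set and 3.47 to 5.80 CPM in the 10-library set. Tek was higher without overlap, at 5.58 to 7.68 CPM in the 5-library set and 1.36 to 3.05 CPM in the 10-library set. Kdr went the other way with overlap, at 0.470 to 0.955 CPM in the 5-library set and 0.829 to 2.92 CPM in the 10-library set. Its log2 difference was -1.56 ± 0.40. Pecam1 (0.85) and Vwf (-0.10) also overlapped. Proliferation markers summed to 1821 to 2890 CPM in the 5-library set and 1983 to 2926 CPM in the 10-library set. Mitochondrial transcripts took 1.32% to 2.13% of gene reads in the 5-library set and 2.40% to 3.46% in the 10-library set. The part of any of these in the members' difference was not tested.

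The ligand comparisons asked whether activating RARα, its partner or both changed the same genes, and the 4 comparisons with a vehicle share the DMSO libraries. No member passed the threshold in any of the 7 comparisons, either without or with the library set as a term of the model. Tests were edgeR quasi-likelihood tests, two-sided, with Benjamini-Hochberg adjustment over 16736 genes and a threshold of 0.05. DESeq2 gave an adjusted p to 21 of the 37 members and called 0 of those 21 in each of the 7. The members without an adjusted p, which DESeq2 could not call, included Car9, Adm, Ankrd37, Bnip3 and Ndrg1. Without the term, 0 of 37 members also had an unadjusted p under 0.05 in any comparison. Over all 16736 genes, 76 (CD3254 against DMSO) to 251 (AM580+CD3254 against DMSO) had one. The share of all genes called without the term was 0.0179% for AM580+CD3254 against DMSO and 0% for the others: AM580, CD3254 and 9-cis retinoic acid against DMSO, AM580+CD3254 against AM580 and against CD3254, and the interaction. Typical variation of a member between replicates (the median biological coefficient of variation) was 0.156 with the term and 0.718 in its absence. In the model without the term 9 of 37 members had a 95% interval within 1 log2 unit either way for each ligand against DMSO.

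With the term, which was read from the same counts, 33 of 37 members for AM580, 35 for CD3254, 36 for AM580+CD3254 and 35 for 9-cis retinoic acid had their interval within 1 log2 unit of 0. The share of all genes called was 0.0299% for AM580, 0.0239% for CD3254, 0.125% for AM580+CD3254 and 0.0299% for 9-cis retinoic acid, each against DMSO. It was 0.012% for AM580+CD3254 against AM580, 0.0299% for AM580+CD3254 against CD3254, and 0% for the interaction. With the term, 2, 2, 4 and 1 of 37 members had an unadjusted p under 0.05 for AM580, CD3254, AM580+CD3254 and 9-cis retinoic acid against DMSO. Over all 16736 genes these counts were 704, 332, 801 and 665. The member count was 1 for AM580+CD3254 against each agonist alone and 2 for the interaction. The count over all genes was 940 for AM580+CD3254 against AM580, 341 against CD3254 and 332 for the interaction. The median log2 change over the members was 0.03 with AM580, -0.03 with CD3254, 0.05 with AM580+CD3254 and 0.09 with 9-cis retinoic acid, against 0.005, -0.005, -0.006 and 0.012 over all genes tested.

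**Figure D4:**
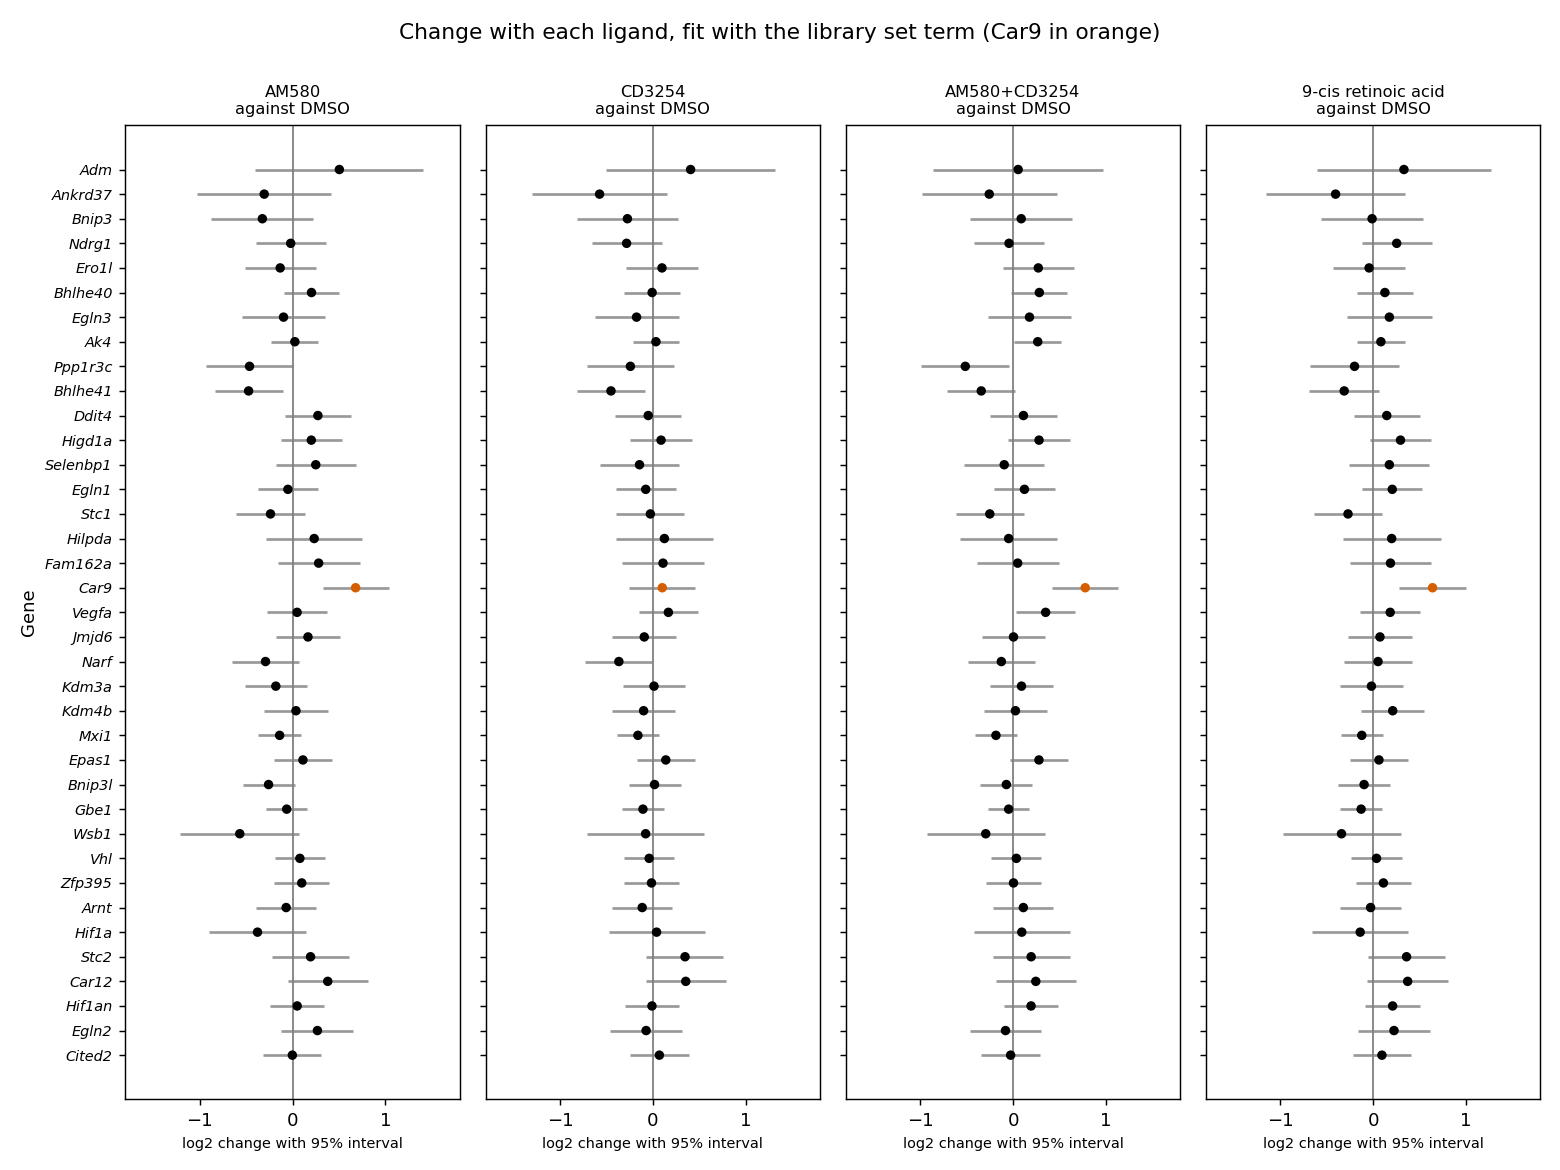
Fitted log2 change of each gene with each ligand against DMSO (points) and its 95% interval (lines), from the model with the library set as a term; Car9 is in orange. Intervals of most genes cross 0, and Car9 has 0.68, 0.10, 0.78 and 0.64 in the panels from left to right.

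Car9 had the smallest unadjusted p of all members for AM580, AM580+CD3254 and 9-cis retinoic acid in that model. In the 5-library set its level was 248 CPM with AM580, 141 with CD3254, 196 with AM580+CD3254 and 165 with 9-cis retinoic acid, against 141 with DMSO. In the 10-library set it was 43.9 and 37.3 CPM with AM580, 29.4 and 30.7 with CD3254, 56.5 and 45.8 with AM580+CD3254 and 46.1 and 49.9 with 9-cis retinoic acid, against 27.6 and 26.3 with DMSO. In both sets every library with AM580 or 9-cis retinoic acid lay above every library with CD3254 alone or DMSO. Car9 was the only 1 of 37 members with that order in both sets, which was looked for after its values were seen, and 0.37% of all genes had it. Within the 5-library set alone, where it sets 3 libraries against 2, 16 of 37 members had that order. Within the 10-library set only Car9 had it. The shares of all genes with that order in a single set were not counted, so these member counts have no background beside them.

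The log2 change of Car9 against DMSO was 0.68 ± 0.17 with AM580 (SE, edgeR FDR = 0.808), 0.78 ± 0.17 with AM580+CD3254 (edgeR FDR = 0.177) and 0.64 ± 0.17 with 9-cis retinoic acid (edgeR FDR = 0.98). With CD3254 it was 0.10 ± 0.16, with an interval of -0.25 to 0.46, and AM580+CD3254 against CD3254 gave 0.68 ± 0.17 (edgeR FDR = 1). AM580+CD3254 against AM580 gave 0.10, with an interval of -0.26 to 0.45. None of these passed the threshold. Without AM580 replicate 1 the change with AM580+CD3254 had an edgeR FDR of 0.038; over all 15 fits that leave out 1 library with the term, its log2 change ran from 0.65 to 0.87 and its FDR from 0.038 to 0.643. In the 10-library set alone that change was 0.92 (edgeR FDR = 0.0809). Without the term the change was 0.62, and it ran from -0.35 to 1.88 when 1 library was left out.

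**Figure D5:**
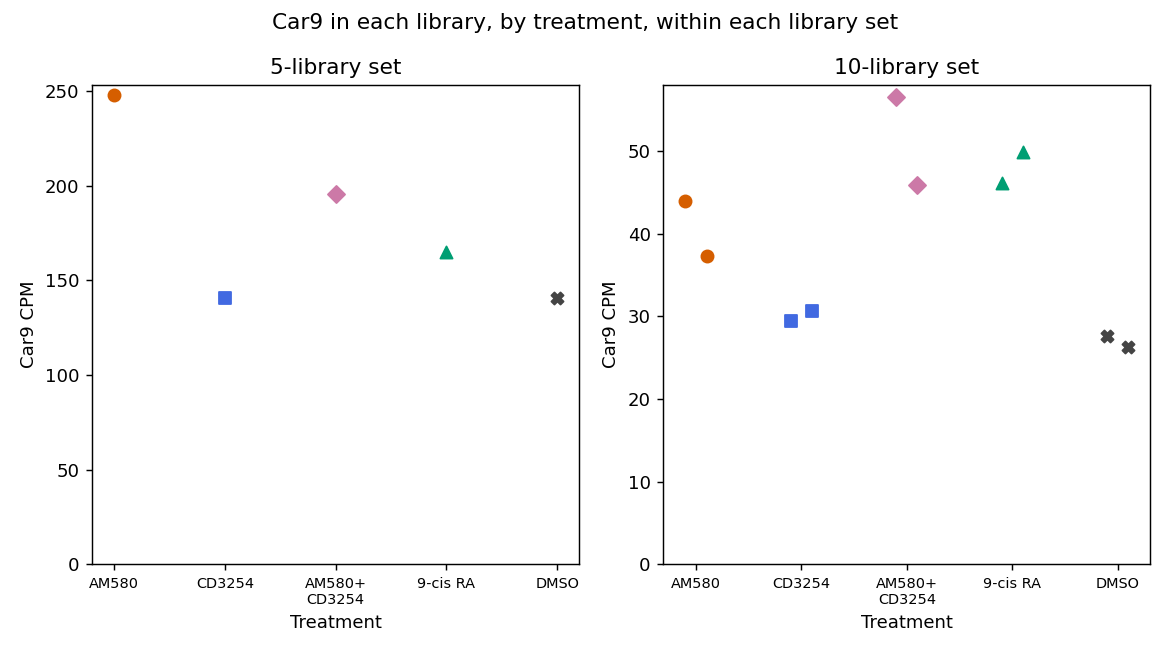
Car9 level in CPM in each library, by treatment, for the 5-library set (left) and the 10-library set (right); the 2 axes differ in scale. AM580, AM580+CD3254 and 9-cis retinoic acid lie at 165 to 248 CPM on the left and 37.3 to 56.5 on the right, above CD3254 and DMSO in each panel.

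The next members by p did not pass either, and each is given from the model with the term. Bhlhe41 changed by -0.47 ± 0.17 with AM580 (edgeR FDR = 0.808) and by -0.45 ± 0.17 with CD3254 (edgeR FDR = 1). Ppp1r3c changed by -0.46 ± 0.22 with AM580 and -0.51 ± 0.22 with AM580+CD3254, and Vegfa by 0.35 ± 0.15 with AM580+CD3254 (edgeR FDR = 0.956). Narf had -0.36 ± 0.17 with CD3254, and Stc2 had 0.35 ± 0.19 with CD3254 and 0.36 ± 0.19 with 9-cis retinoic acid. Higd1a had 0.29 ± 0.15 with 9-cis retinoic acid. For AM580+CD3254 against AM580 the smallest p values were those of Ero1l at 0.40 ± 0.18, Ak4 at 0.24 ± 0.12 and Vegfa at 0.30 ± 0.15. Against CD3254 they were those of Car9, Bhlhe40 at 0.29 ± 0.14 and Ak4 at 0.23 ± 0.12. For the interaction they were those of Bhlhe41 at 0.58 ± 0.24, Narf at 0.53 ± 0.24 and Bnip3 at 0.69 ± 0.36. In the model without the term the members with the smallest p were Hif1a, Car12, Wsb1, Arnt, Stc2, Hif1an and Egln2, and of these Hif1a had -0.41 ± 0.26 with AM580, with an interval of -0.98 to 0.15.

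Known retinoid genes changed with the ligands in the same libraries. In the model with the term, all 5 retinoid check genes (Cyp26b1, Dhrs3, Rarb, Fmo5 and Enpp1) rose with AM580+CD3254 and with 9-cis retinoic acid against DMSO and with AM580+CD3254 against CD3254. Cyp26b1, which degrades retinoic acid, also rose with AM580, with CD3254 and with AM580+CD3254 against AM580; Dhrs3, Fmo5 and Enpp1 also rose with AM580. Without the term, Cyp26b1, Fmo5 and Enpp1 rose with AM580+CD3254 against DMSO. Between the library sets, all 5 overlapped, and the largest differences were those of Cyp26b1 at 1.75 ± 0.23, Dhrs3 at 1.15 ± 0.41 and Fmo5 at -0.73 ± 0.32. The list was drawn up with results of these libraries known, so it is no independent evidence.

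Of the other HIF-related lists, 1 gene passed the threshold in any ligand comparison. Angptl4, a secreted inhibitor of lipoprotein lipase that is induced by PPAR receptors as well as by hypoxia, had 1.17, 18.5, 11.8, 1.95 and 1.01 CPM in the 5-library set. In the 10-library set it had 12.2 and 9.72 CPM with AM580, 58.5 and 57.3 with CD3254, 57.1 and 57.1 with AM580+CD3254 and 15.4 and 9.24 with 9-cis retinoic acid, against 14.9 and 10.1 with DMSO. It was higher with CD3254 and with AM580+CD3254 in both sets, and lower in the 5-library set than in the 10-library set within each treatment. Its log2 change was 2.80 ± 0.34 with CD3254 (edgeR FDR = 0.0105) and 2.51 ± 0.34 with AM580+CD3254 (edgeR FDR = 0.00523) against DMSO. AM580+CD3254 against AM580 gave 2.62 ± 0.34 (edgeR FDR = 0.0172). These were calls with the term; without it the FDR was 1 in all 3. In the model with the term, 0 genes at all were called for CD3254 against DMSO when DMSO replicate 1 or DMSO replicate 3 was left out, so the Angptl4 call with CD3254 was lost there. Its mean difference between the sets was -2.64 ± 0.74, opposite in sign to the members' median.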

How the data were processed

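RNA sequencing counts of 15 libraries were analysed. The table deposited by the authors holds raw read counts per Ensembl gene, made, per the submitters' processing notes, with HISAT2 2.2.1, HTSeq, SAMtools 1.18 and FastQC on genome build mm10. The sources used here do not give the annotation release or the strand setting. The 5 counter categories without a gene (18.1% to 28.5% of reads in 14 libraries, 63.0% in 9-cis retinoic acid replicate 3) stayed outside all totals, and 0 columns were unused. No library pair agreed within counting noise (lowest chi-square per degree of freedom 13.2 over 105 pairs).

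Counts were filtered with filterByExpr, scaled by TMM and tested with edgeR 4.0.16 in R 4.3.3 (quasi-likelihood, robust, all 15 libraries, 7 contrasts, two-sided, Benjamini-Hochberg over 16736 genes, written as FDR). The model with the library set as a term stands beside it. The scripts were tested on simulated data. Log2 CPM used a prior count of 2. Members and lists were chosen with earlier results of these data known. Full values were planned for members whose sets did not overlap and differed by at least 1, and for regulators. Car12, Stc2, Zfp395, Cited2 and Wsb1 met neither condition and were given in the same form. The 3 smallest p per comparison were named, as were called genes and the 3 largest set differences of each other list. For the matrix list, 1 of these is not reported here. Alternatives were DESeq2 1.42.0, its size factors, no filter, a prior count of 0.5, library totals, a replicate block, the 10-library set alone and leaving out each library. Same-numbered libraries of different treatments correlated from -0.681 to 0.815, with 20 of 30 pairs over 0.1 (median 0.386, against -0.211 for 60 pairs with different numbers). The numbers partly follow the library sets, which these correlations do not separate from pairing, so the correlations cannot decide on it. Since not every pair passed 0.1 and no label pairs them, the numbers were not taken to pair samples. Coordinates are GENCODE M21 on GRCm38; promoters are RefSeq on GRCm38.p6.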

Additional observations from a re-analysis of the deposited data

How the results depend on the processing

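The labels name no batch, so the set term rests on the counts it adjusts. The members' median set difference was 2.06 and ran from 1.995 to 2.078 when 1 library was left out. The count of members called with edgeR was 0 of 37 in each comparison and setting, with 1 exception. Car9 was called for AM580+CD3254 against DMSO with the term and without AM580 replicate 1 (range 0 to 1). For DESeq2 the count was 0 of the 21 with an adjusted p, and Car9 was not among those 21. With a replicate block, a paired fit by replicate number, 0 members were called in all 7 comparisons. The block does not follow the library sets for AM580+CD3254, whose library in the 5-library set is replicate 2 and not replicate 1. The difference between the sets is therefore not removed from its AM580+CD3254 estimates. The members' median change for AM580+CD3254 against DMSO was 0.557 with the block, against 0.118 without it. In that comparison 7 genes were called with the block, against 3 without it. In the same comparison DESeq2 called 14 genes and the model with the set term 21. Over all genes, DESeq2 called 10 with AM580, 0 with CD3254 and 10 with 9-cis retinoic acid against DMSO, 1 for AM580+CD3254 against AM580, 6 against CD3254 and 0 for the interaction, where the planned edgeR model called 0 in each and the set term 5, 4, 5, 2, 5 and 0. When 1 library was left out, the genes called for AM580+CD3254 against DMSO ran from 11 (without DMSO replicate 3) to 38 (without AM580 replicate 1) with the set term and from 0 (without any 1 of the DMSO libraries) to 6 (without AM580 replicate 1) in its absence. With the set term, CD3254 against DMSO ran from 0 (without DMSO replicate 1 or 3) to 8 (without AM580 replicate 1), AM580 from 3 to 5, 9-cis retinoic acid from 3 to 8, and AM580+CD3254 against AM580 from 1 to 2 and against CD3254 from 2 to 8. Among 43 changes of named members, none of which the planned model called, the sign turned for 2 with the set term, 5 in the 10-library set alone, 4 with the replicate block and up to 10 without AM580+CD3254 replicate 2. At 1 to 14 reads per library, the size of the Adm difference is limited by depth in the 10-library set.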
